A study of Mus musculus with 52 samples.

Results

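Macrophages and dendritic cells were followed through 40 genes of the myeloid lineage, read in bulk RNA of primary mouse osteosarcomas. The genes were taken by symbol from a fixed list, and all 40 were found among the 20730 genes of the table. Of these, 38 passed the low-count filter and were tested between genotypes. The receptors Marco and Xcr1 did not pass it, and by genotype they are given as levels only. The correlations across tumours took in all 40.

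The study measured RNA in 52 libraries of flash-frozen osteosarcomas of 3 genotypes at Trp53, the gene of the tumour suppressor p53. The p53R172H/fl tumours (19 libraries) and the p53R245W/fl tumours (17 libraries) each paired 1 conditional allele with 1 allele carrying the named missense change. The p53fl/fl tumours (16 libraries) carried 2 conditional alleles. No group kept 2 unaltered alleles, and the labels name neither the Cre line nor the promoter that drove it. Trp53 ranged over 26.0, 36.2 and 49.2 CPM (counts scaled to library size; lowest, median and highest) in p53R172H/fl, 22.0, 34.7 and 60.1 CPM in p53R245W/fl and 8.52, 14.2 and 20.1 CPM in p53fl/fl libraries, so neither missense group overlapped the p53fl/fl group. Column names placed the libraries in 3 sets, A, B and C; all 18 set B libraries had a partner of the same genotype in set A or C whose profile was far closer than the next (Spearman rho 0.64 to 0.928, against 0.51 at most for a second choice), which left 34 units. Matched libraries carry different tumour numbers, and whether they come from the same animal is not stated, so tests over 52 libraries may count a tumour more than once. Nothing in the labels says that libraries are separate animals, and p-values measure the spread between libraries.

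Macrophages arise from embryonic precursors and from blood monocytes, and in tumours they clear dead cells and debris, take up lipid and process antigen. The transcription factor PU.1, encoded by Spi1, is needed for the myeloid lineage, and in bone it is shared by osteoclasts, the multinucleated cells that resorb matrix and that descend from the same precursors. Conventional dendritic cells, which depend on the receptor Flt3, carry antigen to T cells.

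PU.1 binds purine-rich DNA with a GAGGAA core (TTCCTC on the other strand). Because many of the genes moved together across tumours, the 250 bases before the RefSeq start of each gene were searched for these letters on both strands. The RefSeq table (GRCm38.p6) held 34 promoters of 29 of the genes. The letters were found in 19 of these 34 promoters (55.9%) and in 7639 of all 32851 mouse promoters of the table (23.3%). Fcgr3 and Clec7a each have 2 starts a few bases apart, so 1 match counts in both promoters. By gene, 16 of 29 had the letters. Of Spi1 and its followers given below (5 genes), 2 were in the table and 2 had the letters. Of Adgre1 and its followers (21 genes), 15 were in the table and 11 had them. A match is a string of letters and not a shown binding site. The promoters of Cd68, which followed Spi1 across tumours, and of C1qb, Fcgr1 and Itgam, which followed the macrophage gene Adgre1, are printed 5′ to 3′ on the gene's strand, with the core in capitals. Cd68 lies at chr11:69666171-69666420 (minus strand), C1qb at chr4:136886201-136886450 (minus strand), Fcgr1 at chr3:96293970-96294219 (minus strand) and Itgam at chr7:128062390-128062639 (plus strand).
Cd68: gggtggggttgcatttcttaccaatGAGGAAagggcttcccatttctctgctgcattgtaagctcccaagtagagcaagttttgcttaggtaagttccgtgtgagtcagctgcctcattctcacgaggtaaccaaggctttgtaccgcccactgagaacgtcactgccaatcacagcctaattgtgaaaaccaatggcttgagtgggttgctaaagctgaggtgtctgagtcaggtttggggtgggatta
C1qb: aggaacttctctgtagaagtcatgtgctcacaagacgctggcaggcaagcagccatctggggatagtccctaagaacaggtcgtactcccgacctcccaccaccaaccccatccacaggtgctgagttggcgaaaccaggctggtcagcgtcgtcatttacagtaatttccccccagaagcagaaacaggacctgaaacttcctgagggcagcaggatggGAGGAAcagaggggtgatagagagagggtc
Fcgr1: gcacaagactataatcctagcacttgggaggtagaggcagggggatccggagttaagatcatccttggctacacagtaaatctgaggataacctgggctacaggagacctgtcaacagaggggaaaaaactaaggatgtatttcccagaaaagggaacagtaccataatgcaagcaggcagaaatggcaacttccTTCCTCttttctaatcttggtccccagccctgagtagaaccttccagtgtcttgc
Itgam: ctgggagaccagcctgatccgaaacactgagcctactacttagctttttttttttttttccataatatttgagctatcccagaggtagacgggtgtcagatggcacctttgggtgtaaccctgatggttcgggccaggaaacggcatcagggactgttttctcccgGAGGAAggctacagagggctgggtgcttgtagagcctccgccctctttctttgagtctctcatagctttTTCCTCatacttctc
The core begins 225 bases before the start in Cd68, 30 before it in C1qb, 55 before it in Fcgr1, and both 84 and 15 before it in Itgam. Lyz2, Ms4a7, Fcer1g, Cd163, Mertk, Gpnmb, Itgax, Cx3cr1, Ccr2, Flt3, Xcr1, Clec9a and Zbtb46 had promoters in the table without these letters in the window.

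Set side by side per kilobase of exon, Apoe, the lipid carrier that macrophages secrete, and Lyz2, the macrophage lysozyme, had the highest median levels over all libraries, at 309 and 305 CPM per kb. The C1q chains, which start the classical complement pathway, followed with 191 CPM per kb for C1qa, 147 for C1qb and 67.5 for C1qc. Tyrobp, the signalling adaptor also called DAP12, had 124 CPM per kb, the endosomal glycoprotein gene Cd68 had 121, and the lysosomal protease gene Ctss had 110. The dendritic cell genes stood at the other end. Xcr1, a chemokine receptor of cross-presenting dendritic cells, had a median of 0.0227 CPM per kb, Clec9a, their receptor for dead cells, had 0.0592, and Flt3 had 0.135. Marco, a scavenger receptor, had a median of 0.0432 CPM per kb and was at 0 in 12 libraries, and Xcr1 and Clec9a were each at 0 in 6. Zbtb46, a transcription factor of conventional dendritic cells that endothelial cells also express, was higher at 2.57 CPM per kb. Batf3, which cross-presenting dendritic cells need, had 0.649 CPM per kb. Levels spread widely over the 52 libraries: among genes detected in every library, the highest exceeded the lowest by 3.96 times for Mertk, a receptor for dying cells, and by 769 times for Arg1, which breaks down arginine. Lyz2 shares sequence with Lyz1, Csf2rb with Csf2rb2, and the Fc receptors with each other, so their counts may be divided between copies.

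**Figure D1:**
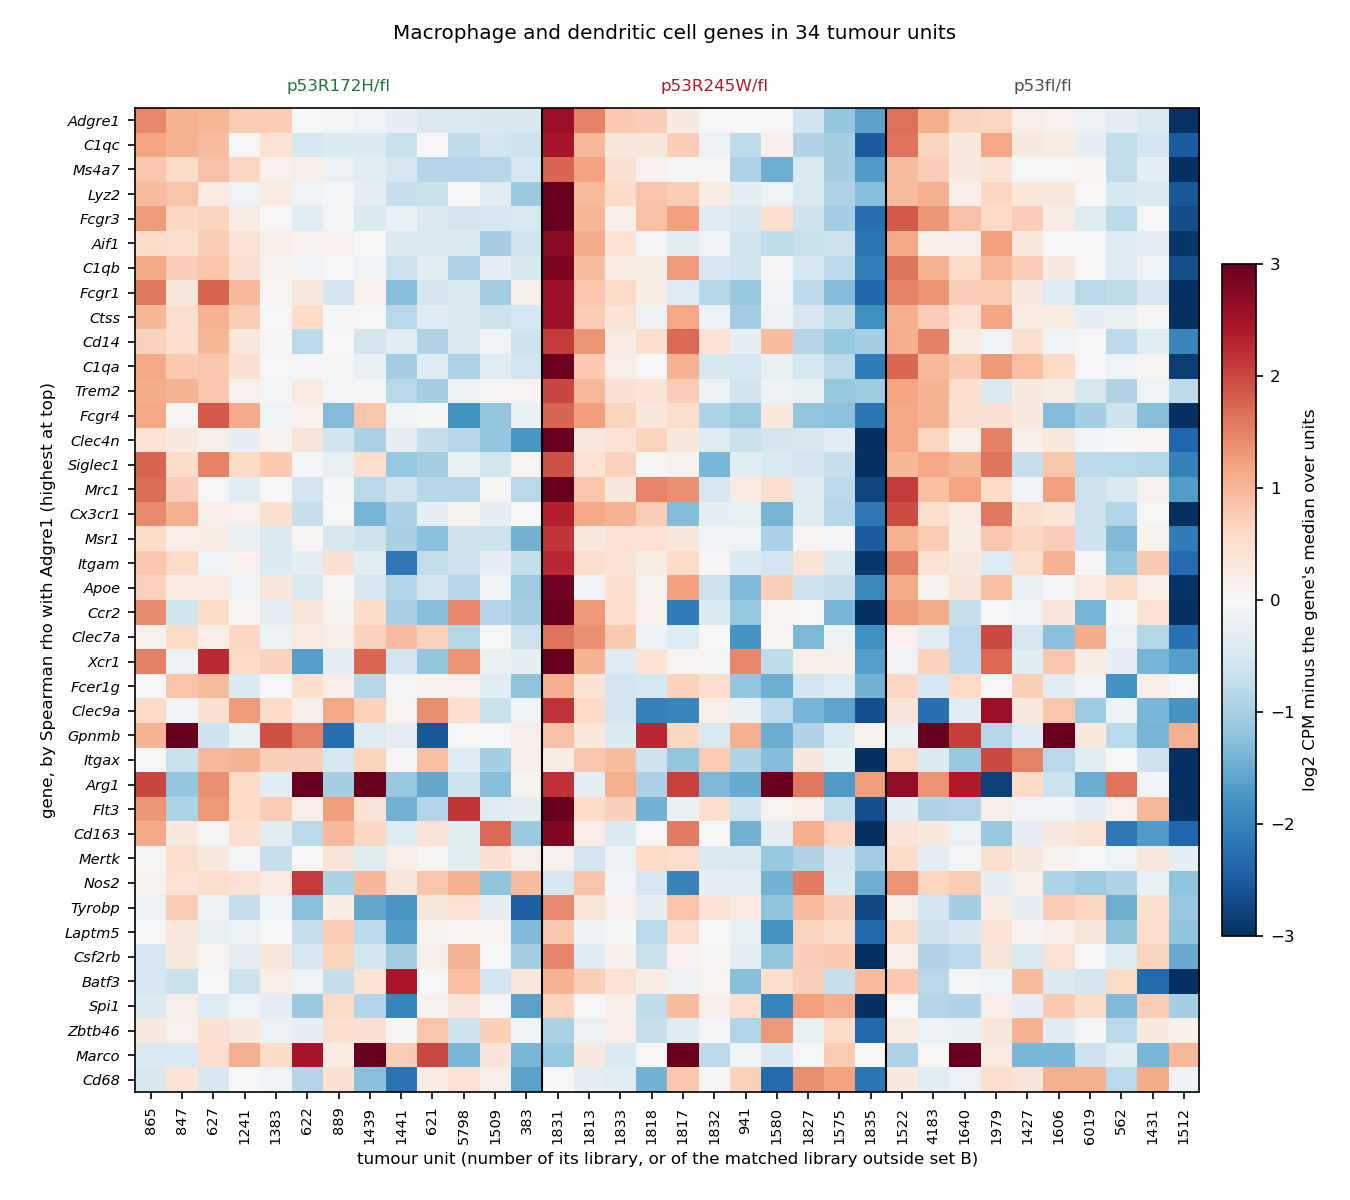
Level of each of the 40 genes (down the page) in each of the 34 tumour units (across), as log2 CPM minus the gene's median over units, by genotype. Unit 1831 of p53R245W/fl is high in most rows, and units 1835 (p53R245W/fl) and 1512 (p53fl/fl) are low in most rows, while Spi1, Tyrobp, Laptm5, Csf2rb and Cd68 near the bottom show another order of tumours.

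A single matched pair of p53R245W/fl libraries, 494 and 1831, held the highest macrophage levels. Summed over the 40 genes, libraries reached 668, 2908 and 18755 CPM (lowest, median and highest) in p53R245W/fl, against 1623, 2577 and 5218 CPM in p53R172H/fl and 819, 3515 and 6589 CPM in p53fl/fl. Libraries 494 and 1831 held 18755 and 17664 CPM, and no other library passed 6589 CPM. Their mean exceeded the median of the other 50 libraries by 13.4 times for Mrc1 (the mannose receptor, 1623 and 1458 CPM), by 12.8 times for Clec4n (the fungal receptor Dectin-2, 236 and 152 CPM) and by 12.5 times for Ccr2 (the chemokine receptor of blood monocytes, 227 and 274 CPM). Averaged as a unit, the pair was the highest of 34 for 27 of the 40 genes. It did not stand out for Cd68 (181 and 115 CPM, 0.952 times the median of the others), Mertk (1.09 times) or Spi1 (1.66 times). It was below that median for Zbtb46 (0.507 times) and for Nos2, the inducible nitric oxide synthase (0.732 times).

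Other cell types moved in the same pair of libraries. The 14 osteoclast markers summed to 576 and 682 CPM in 494 and 1831, against group medians of 3639 CPM in p53R172H/fl, 6675 CPM in all p53R245W/fl and 4328 CPM in p53fl/fl libraries, and of these markers Calcr was at 0 in 1831. The 11 osteoblast and bone matrix markers summed to 2973 and 3669 CPM, where the lowest p53R172H/fl and p53fl/fl libraries held 41607 and 31667 CPM; Bglap2 was at 0 in 494. The 12 T and NK cell markers summed to 72.1 and 56.8 CPM, the highest of all libraries, and none was at 0. The part of these cell types in the levels above was not tested. At the low end, libraries 408 and 1835, also p53R245W/fl and also a matched pair, held 668 and 955 CPM over the 40 genes, and p53fl/fl library 1512 held 819 CPM. Of the 40 genes, 19 had their lowest unit in 1512 and 14 in the unit of 408 and 1835. Bulk RNA cannot tell fewer macrophages from less RNA of these genes in each cell.

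Across the 34 units, some genes followed Spi1 and others followed Adgre1, and by rank few followed both. Tyrobp (rho 0.93, r 0.93), Cd68 (rho 0.91, r 0.92), Laptm5, a lysosomal membrane protein of blood cells (rho 0.89, r 0.95), and Csf2rb, the shared receptor chain for granulocyte-macrophage colony stimulating factor and interleukin-3 (rho 0.87, r 0.87), followed Spi1. Each had an adjusted p of 0.0002 by permutation over 119 relations, and r was between 0.81 and 0.92 without the 2 units of the most extreme Spi1. Within sets A, B and C the rho with Spi1 was 0.97, 0.95 and 0.96 for Tyrobp, 0.96, 0.93 and 0.92 for Cd68, 0.84, 0.92 and 0.93 for Laptm5 and 0.88, 0.92 and 0.91 for Csf2rb. Itgam (rho 0.49, r 0.65, adjusted p 0.033), the integrin chain CD11b, and Cd163 (rho 0.47, r 0.59, adjusted p 0.0385), the receptor for haptoglobin-bound haemoglobin, passed the same test. Without libraries 494 and 1831 their rho was 0.46 and 0.44 with adjusted p 0.063 and 0.082; neither passed within a set. Without the 2 most extreme units their r was 0.53 and 0.44. In all, 6 members passed with all units and 4 without that unit.

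Adgre1, the macrophage surface receptor F4/80, was not among them: its rho with Spi1 was 0.03, and 0.02, 0.08 and 0.03 within sets A, B and C. It was taken as a second anchor after this was seen. A rho of 0.5 or more with Adgre1 was found for 20 members. They were Lyz2, the cytoskeletal protein gene Aif1, Ms4a7, Ctss, the 3 C1q genes, the Fc receptors Fcgr1, Fcgr3 and Fcgr4, the lipopolysaccharide receptor Cd14, Mrc1, the scavenger receptor Msr1, Clec4n, the sialic acid receptor Siglec1, the lipid receptor Trem2, Apoe, Itgam, the fractalkine receptor Cx3cr1 and Ccr2. C1qc was closest (rho 0.92, r 0.94) and Ccr2 least close (rho 0.59, r 0.77); r ranged from 0.761 to 0.94, and from 0.627 to 0.913 without the 2 units of the most extreme Adgre1. The 20 were chosen by this rho, so these values are a description with no test. Within the Adgre1 series of 21 genes the median rho between genes was 0.778, and within the Spi1 series of 5 it was 0.856. Between the 2 series the 105 values had a median of 0.176 and ran from -0.337 to 0.61; the choice of members bears on all 3 medians. By r on log2 CPM the series were not fully separate. With Adgre1, r was 0.39 for Laptm5, 0.38 for Tyrobp and 0.39 for Csf2rb (adjusted p 0.030, 0.032 and 0.035 by permutation over 39 relations). Without the 2 units of the most extreme Adgre1 these were 0.26, 0.26 and 0.18. Cd68 (r 0.04, adjusted p 0.82) and Spi1 (r 0.23, adjusted p 0.21) did not pass. These p-values do not allow for the choice of the anchor after the data were seen. Itgam, counted with Adgre1, also followed Spi1, as given above. All 20 and all 4 members stayed at 0.5 or more in 8 of 9 other settings, and within set A 19 of the 20 did. The other 14 genes reached a rho of 0.5 with neither anchor. Among them were Mertk, Nos2, Arg1, Fcer1g (the Fc receptor gamma chain), Gpnmb (a glycoprotein of lipid-laden macrophages and osteoclasts), Clec7a (the glucan receptor Dectin-1), Itgax (the integrin chain CD11c) and all 5 dendritic cell genes. Below that limit, Clec7a and Xcr1 (both rho 0.47), Fcer1g (rho 0.43) and Clec9a (rho 0.38) passed the threshold with Adgre1 when all units were used. Their adjusted p by permutation was between 0.0084 and 0.043 over 39 relations. In all, 24 members passed with Adgre1 over all units, and 22 without the unit of libraries 494 and 1831. The count was 20 without the units of low Col1a1, and 20, 21 and 20 within sets A, B and C. Xcr1 and Clec9a were each at 0 in 6 libraries. Cd163 followed Spi1 below the limit, as given above.

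**Figure D2:**
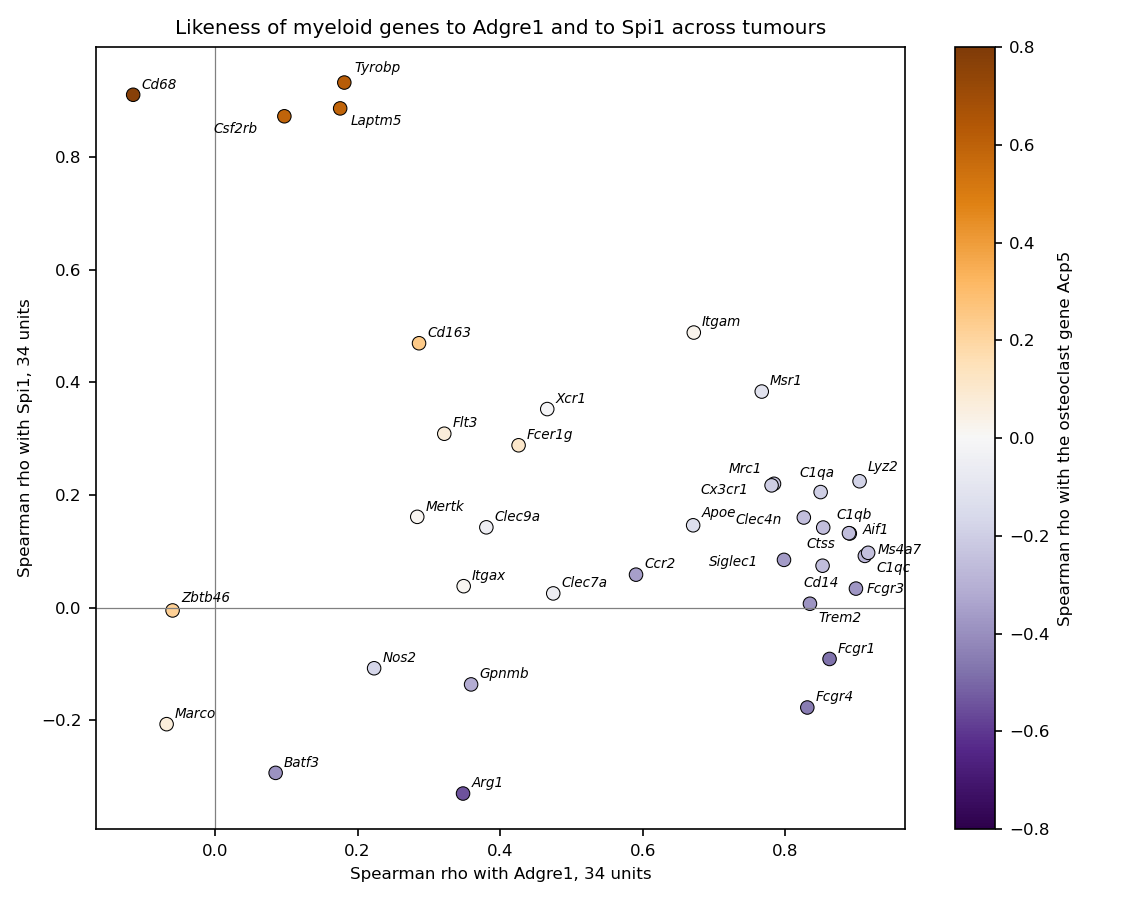
Spearman rho of each gene with Adgre1 (horizontal) and with Spi1 (vertical) over 34 tumour units, coloured by rho with the osteoclast gene Acp5. Cd68, Tyrobp, Laptm5 and Csf2rb lie at the top left with positive Acp5 values, and C1qc, Lyz2, Ms4a7 and the other Adgre1 followers lie at the right with values near or below 0.

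The Spi1 series also followed the osteoclast gene Acp5, and no other osteoclast marker was correlated with the members. With Acp5, the tartrate-resistant acid phosphatase of osteoclasts, rho was 0.77 for Cd68 (r 0.76, adjusted p 0.0002), 0.73 for Spi1 (r 0.72, adjusted p 0.00034), 0.62 for Tyrobp (r 0.60, adjusted p 0.0015), 0.59 for Laptm5 (r 0.61, adjusted p 0.0036) and 0.59 for Csf2rb (r 0.51, adjusted p 0.0032). For Spi1 and Cd68 the values within sets were 0.69 and 0.66 in set A (adjusted p 0.066 and 0.098), 0.73 and 0.87 in set B and 0.72 and 0.86 in set C. For Tyrobp they were 0.71, 0.58 and 0.61 in sets A, B and C, for Laptm5 0.45, 0.61 and 0.61 and for Csf2rb 0.68, 0.62 and 0.59, none past the threshold. No member of the Adgre1 series had a positive relation past the threshold, and Fcgr1 (rho -0.48, r -0.36, adjusted p 0.038) and Fcgr4 (rho -0.45, r -0.40, adjusted p 0.043) were negative. Without libraries 494 and 1831 these were -0.43 and -0.41 with adjusted p 0.092 and 0.12, and neither passed within a set. Arg1 was also negative (rho -0.55, r -0.56, adjusted p 0.0092); it passed within no set, and without the units of low Col1a1 it had rho -0.48 (adjusted p 0.058). Without the 2 units of the most extreme Acp5, r was 0.85 for Cd68, 0.86 for Spi1, 0.81 for Tyrobp, 0.77 for Laptm5, 0.70 for Csf2rb, -0.20 for Fcgr1, -0.30 for Fcgr4 and -0.54 for Arg1. The r of Fcgr1 and Fcgr4 missed the threshold with all units (adjusted p 0.090 and 0.053).

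**Figure D3:**
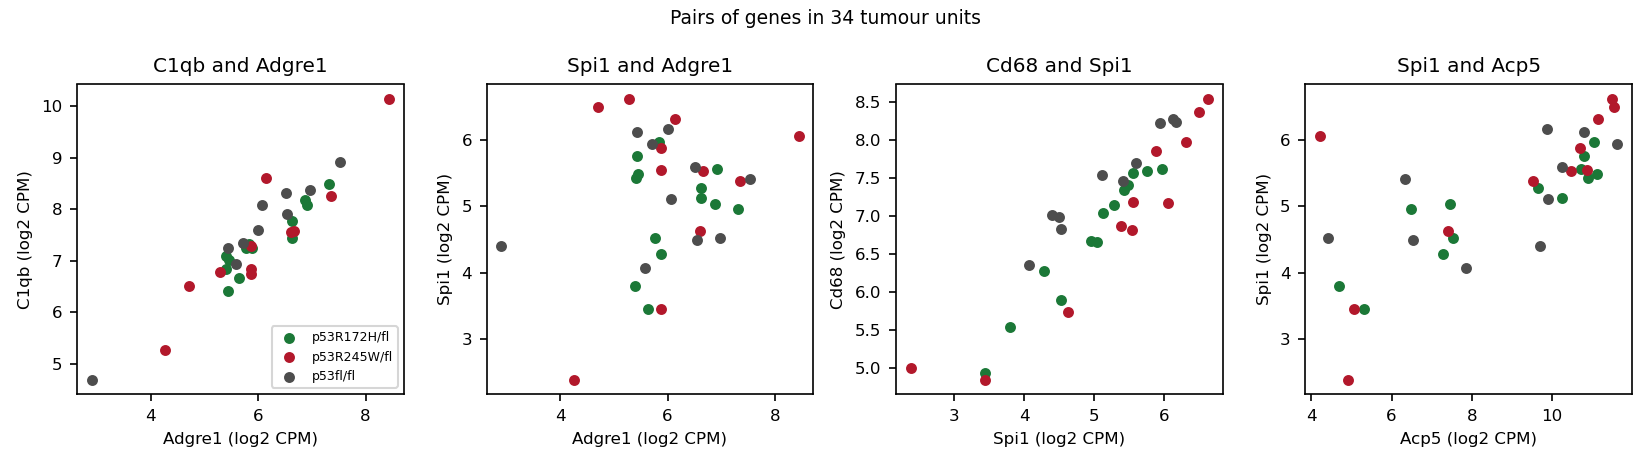
Pairs of genes in 34 tumour units (points, coloured by genotype), both axes in log2 CPM. C1qb rises with Adgre1, Spi1 shows no order with Adgre1, Cd68 rises with Spi1, and Spi1 rises with Acp5 except in 1 unit of low Acp5 and high Spi1.

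The genes of highest rho with Spi1 outside the list, among 13958 genes ranked, were Lcp2, Ptpn22, Rnf19b, Ifi30, Akr1c13, Rac2, Nfam1, Itgb2, Matk and Ccr1, with rho between 0.95 and 0.91 over the 34 units. Lcp2 encodes an adaptor of immune receptor signalling, Rac2 a GTPase of blood cells and Itgb2 the integrin chain that pairs with the products of Itgam and Itgax.

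Clec9a, Flt3 and Itgax followed a T cell gene across tumours. With Cd3e, a chain of the T cell receptor complex, rho was 0.78 for Clec9a (r 0.78, adjusted p 0.0002), 0.64 for Flt3 (r 0.74, adjusted p 0.001) and 0.61 for Itgax (r 0.63, adjusted p 0.0029), and r was 0.73, 0.61 and 0.60 without the 2 units of the most extreme Cd3e. Aif1 (rho 0.49, r 0.66, adjusted p 0.034) and Clec7a (rho 0.47, r 0.53, adjusted p 0.040) passed too, with r of 0.47 and 0.36 without those units. With Adgre1, rho was 0.38 for Clec9a, 0.32 for Flt3 and 0.35 for Itgax; the difference between the 2 anchors was not tested. Within sets A, B and C the rho of Clec9a with Cd3e was 0.57 (adjusted p 0.20), 0.71 (adjusted p 0.025) and 0.91 (adjusted p 0.0004). Within the same sets it was 0.59, 0.48 and 0.69 for Flt3 and 0.57, 0.38 and 0.68 for Itgax, past the threshold in set C alone, and for Aif1 and Clec7a it was past it in no set. Without libraries 494 and 1831, Aif1 had rho 0.44 (adjusted p 0.082) and Clec7a 0.42 (adjusted p 0.10). Counts were low: a library held between 0 and 86 counts of Clec9a and between 1 and 478 of Flt3.

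In p53R172H/fl against p53fl/fl tumours, 0 of the 38 tested genes passed an adjusted p of 0.05 in edgeR's quasi-likelihood test, while 3.75% of all 18882 genes did (1.46% higher and 2.29% lower). At an unadjusted p under 0.05 there were 2 of 38, against 18.6% of all genes, and DESeq2 also called 0, with 5 unadjusted. Cd68 ranged over 30.7, 106 and 238 CPM (lowest, median and highest) in p53R172H/fl, against 71.1, 166 and 422 CPM in p53fl/fl libraries. The groups overlapped, with 5 of 19 p53R172H/fl libraries below every p53fl/fl library; the fitted log2 difference was -0.67 ± 0.31 (SE), with an adjusted p of 0.22. Msr1 ranged over 16.2, 29.6 and 64.1 CPM in p53R172H/fl and 10.1, 51.9 and 89.4 CPM in p53fl/fl, a log2 fold change of -0.61 ± 0.29 (adjusted p 0.24). The 3 C1q chains had values of -0.54, -0.38 and -0.25 for C1qa, C1qb and C1qc. Of the 4 dendritic cell genes tested all were positive, with a median of 0.43, and none passed. The median over the 38 genes was -0.10, beside -0.02 over all genes.

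Beside Spi1, Cd68 stood lower on average in both missense groups than in p53fl/fl tumours. This was seen in the plot of Cd68 against Spi1 and tested afterwards. The adjusted p-values cover 12 tests and not the choice of this pair. The difference between Cd68 and Spi1 in log2 CPM was 1.77 ± 0.20 (SD, n = 13 units) in p53R172H/fl and 1.64 ± 0.44 (n = 11) in p53R245W/fl, against 2.28 ± 0.19 (n = 10) in p53fl/fl tumours. All 13 p53R172H/fl units and 10 of 11 p53R245W/fl units lay below the lowest p53fl/fl unit; the exception was the unit of 408 and 1835, which had the lowest Spi1 of all. The mean difference was -0.50 in p53R172H/fl (adjusted p 0.00048, two-sided permutation test, 12 tests) and -0.63 in p53R245W/fl (adjusted p 0.00504), each over p53fl/fl. The corresponding differences for Laptm5, Tyrobp and Csf2rb against Spi1 had adjusted p of 0.106 or more in both comparisons. Within sets A, B and C the Cd68 difference was -0.35, -0.64 and -0.40 for p53R172H/fl over p53fl/fl. Within sets B and C it was -0.36 and -0.41 for p53R245W/fl over p53fl/fl. By the column names, the p53fl/fl libraries of set C were in lane 3. Its p53R245W/fl libraries, except 1580, were in lanes 4 and 5. Genotype and lane can therefore hardly be told apart in this comparison within set C. Set C held 2 p53fl/fl libraries, both matched to set B libraries, and all 6 set B p53R245W/fl libraries were matched to set C libraries. The values of sets B and C therefore come from overlapping units. Set against the mean of Spi1, Laptm5, Tyrobp and Csf2rb, the Cd68 difference was -0.59 in both comparisons, with 10 of 13 and 6 of 11 units below every p53fl/fl unit. This difference from the mean was not tested. In GENCODE M21, Cd68 lies at chr11:69664213-69666153 (minus strand), 72.3 kb from Trp53 at chr11:69580359-69591873, the locus by which the groups differ; the part of this neighbourhood was not tested.

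In p53R245W/fl against p53fl/fl tumours, 1 of 38 genes rose and none fell, while 10% of all genes rose and 7.82% fell, 17.8% in all. At an unadjusted p under 0.05 there were 4 of 38, against 31.4% of all genes. The gene was Cd163. It ranged over 0.188, 13.4 and 91.9 CPM in p53R245W/fl, against 2.2, 10.3 and 17 CPM in p53fl/fl libraries. The p53R245W/fl values ran both below and above the whole p53fl/fl range. This gave a log2 fold change of 1.27 ± 0.43 (SE; edgeR adjusted p 0.033). Without libraries 494 and 1831 it was 0.65 (adjusted p 0.27) and 0 of 38 genes passed, against 15.4% of all genes; with library set in the model it was 1.01 (adjusted p 0.21), and within sets B and C it was 1.69 and 0.27. Matched libraries summed gave 1.06 (adjusted p 0.18). With the TEC share in the model it was -0.043, and 4 of 38 members were positive, against 29 without it; the median was -0.42. Gpnmb had -1.05 ± 0.48 (adjusted p 0.13), and Spi1 had 0.51 ± 0.30 (adjusted p 0.25), or 0.76 (adjusted p 0.047) without the 5 libraries of low Col1a1, the main collagen gene of bone. The median of the 38 genes was 0.26, beside 0.04 over all genes, and -0.34, beside 0.01, without libraries 494 and 1831.

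In p53R245W/fl against p53R172H/fl tumours, 8 of 38 genes (21.1%) rose and 1 fell, while 18.2% of all genes rose and 12.7% fell. Either way 23.7% of the members and 30.9% of all genes passed, so the share of members was not above that of all genes. At an unadjusted p under 0.05 there were 16 of 38, against 41.8% of all genes. The 8 were the receptors Clec4n, Mrc1, Fcgr3, Msr1 and Cd14, with Lyz2, Apoe and Tyrobp. Of these 8, 7 belong to the Adgre1 series, which makes up 21 of the 38 tested genes. In that series 20 of the 21 genes were highest in the unit of 494 and 1831, and none of the 8 passed without this pair. Only Mertk fell.

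Mrc1 ranged over 14.4, 154 and 1623 CPM in p53R245W/fl, against 62, 98.3 and 388 CPM in p53R172H/fl libraries. The group medians were close to each other beside the spread, and in these groups 494 and 1831 alone exceeded 388 CPM. Its log2 fold change came to 1.45 ± 0.40 (SE; edgeR adjusted p 0.0054) and 0.39 (adjusted p 0.37) without 494 and 1831. Clec4n ranged over 1.26, 13.1 and 236 CPM in p53R245W/fl and 4.11, 11.1 and 21.9 CPM in p53R172H/fl, with 1.46 ± 0.41 (adjusted p 0.0053) and 0.11 without the pair. Lyz2 ranged over 138, 399 and 3776 CPM in p53R245W/fl and 190, 394 and 814 CPM in p53R172H/fl, with 1.03 ± 0.33 (adjusted p 0.014) and 0.14 without the pair. In each of these genes both the lowest and the highest library of the 2 groups were p53R245W/fl. Apoe (0.99 ± 0.34, adjusted p 0.022), Fcgr3 (1.04 ± 0.37, adjusted p 0.029), Msr1 (0.81 ± 0.29, adjusted p 0.027) and Cd14 (0.79 ± 0.30, adjusted p 0.042) had 0.13, 0.09, 0.30 and 0.44 without the pair, none past the threshold. The share of counts at intronic and unverified (TEC) transcripts differed with genotype, at 0.0775, 0.152 and 0.317% (lowest, median and highest) in p53R245W/fl and 0.222, 0.304 and 0.381% in p53R172H/fl, and was 0.112% in 494 and 0.104% in 1831. With this share in the model Lyz2 had -0.12, Fcgr3 -0.34 and Cd14 -0.19, 0 of 38 genes passed, and 8 members were positive, against 28 without it; the median was -0.36.

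Tyrobp, of the Spi1 series, had a smaller loss without that pair. It ranged over 8.04, 125 and 299 CPM in p53R245W/fl, against 13.2, 72.1 and 152 CPM in p53R172H/fl libraries. The log2 fold change was 0.86 ± 0.31 (adjusted p 0.030), 0.66 (adjusted p 0.11) without 494 and 1831 and 0.92 (adjusted p 0.016) without the 5 libraries of low Col1a1. Spi1 ranged over 4.07, 60.9 and 99.8 CPM in p53R245W/fl and 10.9, 34.9 and 62.8 CPM in p53R172H/fl. Its log2 fold change was 0.72 ± 0.29 (adjusted p 0.052), 0.69 without the pair and 0.96 (adjusted p 0.0047) without the libraries of low Col1a1. Cd68 had 0.67 ± 0.31 (adjusted p 0.087), 0.72 and 0.98 (adjusted p 0.011) in the same 3 fits. With the TEC share in the model Tyrobp had 0.26, Spi1 0.22 and Cd68 -0.10, and in the paired limma fit they had 0.45, 0.34 and 0.41, none past the threshold. All 14 osteoclast markers were positive in the same comparison, with a median of 0.60 beside 0.07 over all genes; their part in these values was not tested.

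By role, beside the 18.2% of all genes that rose, 1 of 7 core macrophage genes rose, with positive values for all 7, and 2 of 5 Fc receptor and adaptor genes, 4 of 8 scavenger and pattern recognition receptors (with Mertk lower) and 1 of 3 lipid handling genes rose. None of the 3 C1q chains passed. C1qa ranged over 41.9, 178 and 1740 CPM in p53R245W/fl and 97.2, 193 and 431 CPM in p53R172H/fl, a log2 fold change of 0.72 (adjusted p 0.11), and C1qb and C1qc had 0.69 and 0.56. These chains are encoded side by side at chr4:136880129-136898803, and in C1qa the median of p53R245W/fl was below that of p53R172H/fl while the fitted value was positive. None of 5 integrin, chemokine and cytokine receptor genes passed, with 0.87 (adjusted p 0.15) for Ccr2 and -0.50 for Itgax. Neither Arg1 nor Nos2 passed, with -0.77 (adjusted p 0.061) for Nos2, which ranged over 0.795, 3.13 and 14 CPM in p53R245W/fl and 1.78, 6.05 and 19.6 CPM in p53R172H/fl. Of 4 dendritic cell genes none passed with all libraries, with -0.46 (adjusted p 0.086) for Zbtb46.

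Adgre1 itself ranged over 32.5, 56.6 and 160 CPM in p53R172H/fl, 12.4, 58.5 and 417 CPM in p53R245W/fl and 7.45, 63.8 and 185 CPM in p53fl/fl libraries, with group medians close beside the spread. Siglec1 ranged over 15.8, 39.4 and 118 CPM in p53R172H/fl, 2.92, 29.9 and 141 CPM in p53R245W/fl and 8.52, 23.2 and 106 CPM in p53fl/fl. Arg1 ranged over 0.299, 0.855 and 12.9 CPM in p53R172H/fl, 0.17, 1.99 and 25.5 CPM in p53R245W/fl and 0.0331, 1.44 and 6.11 CPM in p53fl/fl. The 3 groups overlapped in each of these genes. Marco, untested, reached 13.9 CPM in p53R172H/fl, 1.45 CPM in p53R245W/fl and 1.68 CPM in p53fl/fl, and Xcr1 reached 1.13 CPM in p53R172H/fl, 1.96 CPM in p53R245W/fl and 0.367 CPM in p53fl/fl; both were at 0 in at least 1 library of every group.

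Mertk and the dendritic cell gene Clec9a went the other way. Mertk ranged over 23.2, 43.7 and 91.6 CPM in p53R245W/fl, against 36.8, 62.1 and 89 CPM in p53R172H/fl, and the groups overlapped. The log2 fold change was -0.36 ± 0.14 (adjusted p 0.048), and -0.42 (adjusted p 0.030) without 494 and 1831. With library set in the model 7 of 38 genes passed as higher and 0 as lower, so Mertk did not pass there. Clec9a ranged over 0, 0.108 and 1.25 CPM in p53R245W/fl, against 0.0987, 0.325 and 0.846 CPM in p53R172H/fl. With all libraries its log2 fold change was -0.66 ± 0.56 (adjusted p 0.39), and without 494 and 1831 it was -1.71 (adjusted p 0.017). Without that pair 2 of 38 genes passed, Mertk and Clec9a, both lower, while 27.3% of all genes passed and 11.5% were lower, and the median of the 38 was -0.17, beside 0.40 with all libraries and 0.07 over all genes. After matched libraries were summed, 0 of 39 passed in any direction, 5 at an unadjusted p under 0.05, while 15.2% of all genes passed. With matched libraries as pairs in limma, 0 of 38 passed, 2 unadjusted, while 1.55% of all genes did.

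**Figure D4:**
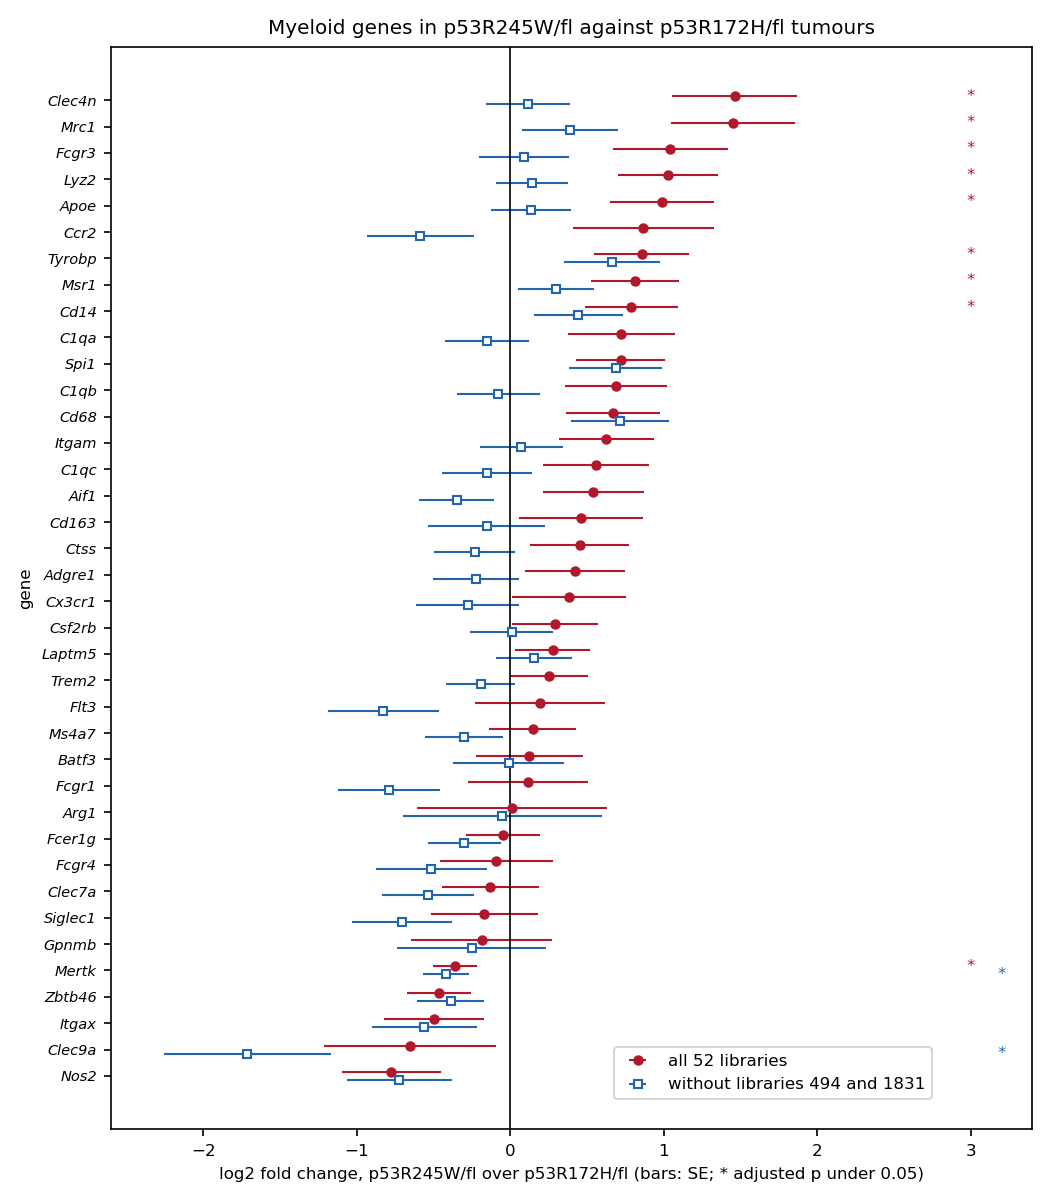
Log2 fold change of the 38 tested genes, p53R245W/fl over p53R172H/fl, with all 52 libraries (red) and without libraries 494 and 1831 (blue); bars are SE and asterisks mark an adjusted p under 0.05. Values of the Adgre1 series shift to the left without the pair, Spi1 and Cd68 stay at 0.69 and 0.72, and Clec9a moves to -1.71.

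**Figure D5:**
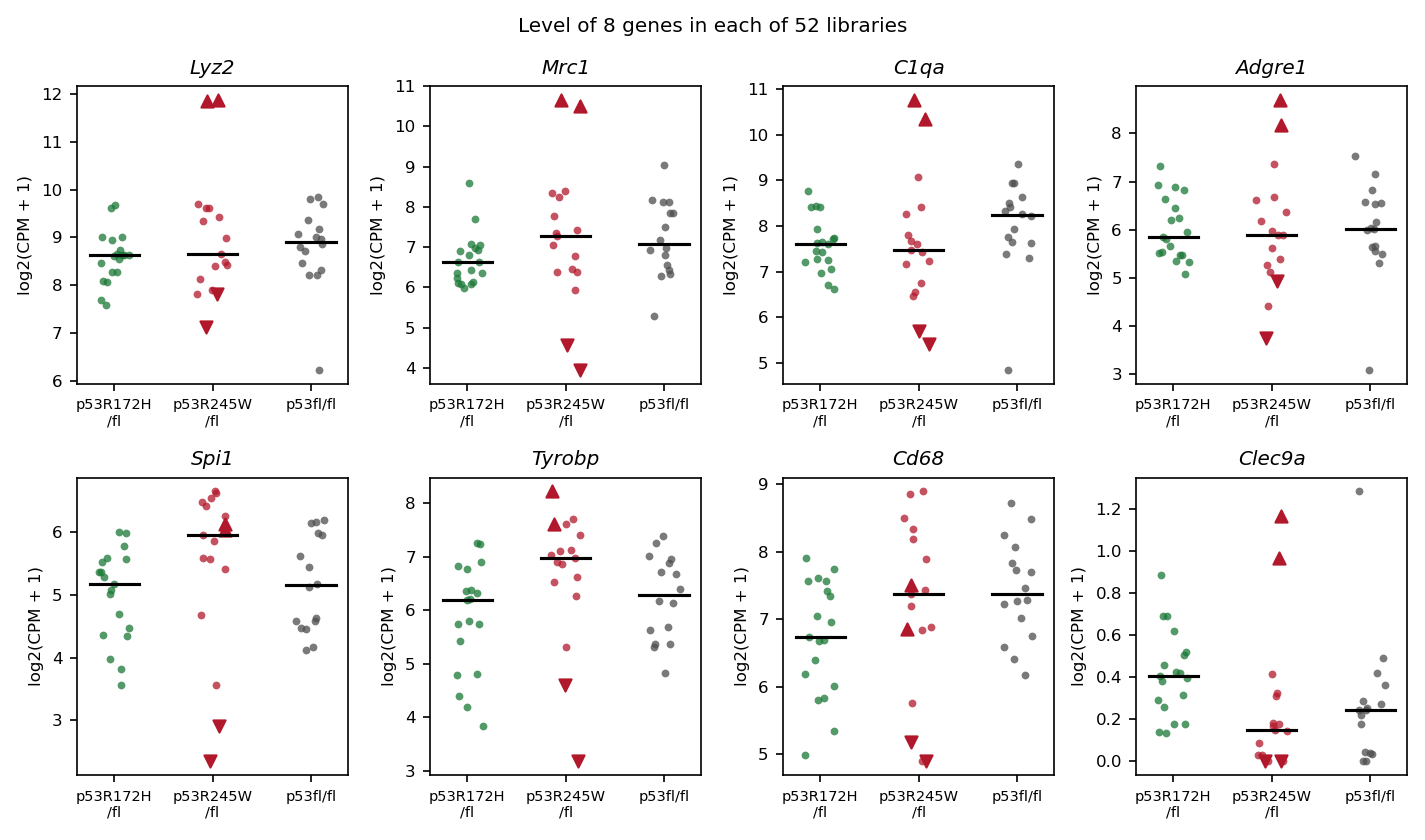
Level of 8 genes in each of the 52 libraries, as log2(CPM + 1), by genotype, with the median as a line. Upward triangles are libraries 494 and 1831 and downward triangles are 408 and 1835; in Lyz2, Mrc1, C1qa and Adgre1 the upward ones top all libraries, and in Spi1 and Cd68 they do not.

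Levels were also compared within the matched pairs. The pairs were chosen by likeness of expression over 14480 genes, from which the members were not left out. A smaller spread within a pair is therefore partly set by that choice, and it is no measure of how repeatable the levels were. Over the 18 pairs the SD within a pair was between 0.106 and 0.856 log2 units per tested gene, with a median of 0.244. Between units it was between 0.464 and 1.93, and it was the larger of the 2 for all 38 genes. Some genes differed with the set: libraries of set B were on average higher than their matches by 0.63 log2 units for Cd68, 0.57 for Gpnmb and 0.46 for C1qa, and lower for Tyrobp (-0.68), C1qc (-0.63), Cd14 (-0.54) and Batf3 (-0.81). Set A holds no p53R245W/fl library, so part of a genotype difference in these genes and the set cannot be told apart in the fit without set. In set C the p53R172H/fl and p53fl/fl libraries were in lane 3 by the column names. The p53R245W/fl libraries of that set, except 1580, were in lanes 4 and 5, so values within set C do not separate this genotype from lane.

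Among 30 other macrophage and monocyte genes, 7 rose and 1 fell in p53R245W/fl against p53R172H/fl tumours, with F13a1 (coagulation factor XIII A, 2.27), Lyve1 (the hyaluronan receptor of tissue-resident macrophages, 2.48), Folr2 (a folate receptor, 1.41) and Vsig4 (a complement receptor, 1.98) first by p; 18.2% of all genes rose and 12.7% fell in this comparison. F13a1 was called without libraries 494 and 1831 as well (1.40, adjusted p 0.014), and Lyve1 (1.05, adjusted p 0.092), Folr2 (0.26) and Vsig4 (0.26) were not. Against p53fl/fl, p53R245W/fl tumours had 3 of the 30 higher, Lyve1 (2.52), Vsig4 (2.77) and F13a1 (1.89), beside 10% of all genes, and 0 higher without the pair. In the paired limma fit 0 of the 30 passed in any comparison. In p53R172H/fl against p53fl/fl tumours Cd5l, a secreted macrophage protein, was the 1 gene that passed (2.13, adjusted p 0.037). It ranged over 0, 0.684 and 13.4 CPM in p53R172H/fl and 0.0166, 0.382 and 1.14 CPM in p53fl/fl libraries.

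Of 18 other dendritic cell and antigen presentation genes, 5 rose in each comparison of p53R245W/fl and 0 changed in p53R172H/fl against p53fl/fl; of all genes, 18.2% rose over p53R172H/fl and 10% over p53fl/fl. In the paired limma fit 0 of the 18 passed in any comparison. Against p53R172H/fl they included the class II chain H2-Ab1 (1.30, adjusted p 0.0068), the maturation marker Cd83 (0.96, adjusted p 0.0088) and Ciita, the activator of class II genes (1.51, adjusted p 0.018). Ciita (1.52, adjusted p 0.026) and Cd83 (0.75, adjusted p 0.046) also passed without 494 and 1831. The chemokine gene Ccl17 (2.32) was at 6.63 and 6.27 CPM in 494 and 1831 and at 0.804 CPM or less elsewhere. Against p53fl/fl, Cd83 (1.16), Ciita (1.89), Ccr7 (1.69) and H2-Ab1 (1.22) rose. Without 494 and 1831, Ccr7 had 0.51 (adjusted p 0.46) and H2-Ab1 0.79 (adjusted p 0.15), and over p53R172H/fl H2-Ab1 had 0.88 (adjusted p 0.062). Ccr7 was at 7.42 and 12.1 CPM in that pair and at 2.71 CPM or less elsewhere, and H2-Ab1 was at 1035 and 826 CPM, against a median of 125 CPM elsewhere. The highest Ciita value, 286 CPM, was in library 408 and the highest Cd83 value, 88.4 CPM, in its match 1835, which were among the 3 libraries with the lowest sum over the 40 genes.

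Of 11 ligands tested that recruit or sustain monocytes and macrophages, Il34, the second ligand of the Csf1 receptor, rose in p53R245W/fl over p53R172H/fl (2.16, adjusted p 0.00079) and over p53fl/fl tumours (2.14, adjusted p 0.0034). It was at 45.6 and 66.1 CPM in 494 and 1831 and at 10.4 CPM or less elsewhere, and without them its log2 fold changes were 0.54 (adjusted p 0.24) and 0.52 (adjusted p 0.34). Flt3l, the ligand of Flt3, fell in p53R245W/fl over p53R172H/fl tumours by 0.69 on the log2 scale (adjusted p 0.026), and by 0.75 without the pair (adjusted p 0.025). Csf1 had -0.55 (adjusted p 0.32) and Cx3cl1 had -0.65 (adjusted p 0.32) in p53R172H/fl over p53fl/fl. None of the 14 osteoclast markers passed in any of the 3 comparisons, though 13 were negative in p53R172H/fl over p53fl/fl, 13 positive in p53R245W/fl over p53fl/fl and 14 positive in p53R245W/fl over p53R172H/fl; Ctsk had 0.83 (adjusted p 0.21) in p53R245W/fl over p53R172H/fl. At an unadjusted p under 0.05 they numbered 0, 0 and 1. Among the 12 T and NK cell markers, 2 rose in p53R245W/fl over p53fl/fl and 1 over p53R172H/fl tumours. Of all genes, 10% and 18.2% rose in these comparisons. Trac rose in both (1.83 and 1.58), with 1.69 and 1.44 without the pair, and Ncr1 rose over p53fl/fl (2.18). Outside the pair, Trac reached 38.965 CPM, against a median of 1.13 CPM. Ncr1 was at 1.96 and 1.66 CPM in 494 and 1831, at 1.23 CPM or less elsewhere and at 0 in 9 libraries. Its value without the pair is not given here.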

How the data were processed

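RNA was measured in 52 libraries of primary mouse osteosarcomas. The authors deposited raw counts per gene; alignment used STAR to GRCm38, per the submitters' processing notes, and for the counting program and annotation the sources used here give no name. Gene IDs were joined to GENCODE M21 for symbols and positions (20668 of 20730). Library totals ran from 21596798 to 67223388 counts with a median of 51026968.5; precision from counting is high for genes such as Lyz2 and low for Clec9a, Flt3, Xcr1 and Marco. No gene in the deposited table had fewer than 260 counts over all libraries.

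Groups came from the genotype labels. Genes were filtered with filterByExpr (minimum count 10), leaving 18882, and tested with edgeR 4.0.16 (R 4.3.3; TMM factors, robust quasi-likelihood F test, all 3 groups in 1 fit) with Benjamini-Hochberg adjustment over all tested genes at 0.05. Alternatives used RLE factors, no filter, a minimum count of 50, DESeq2 1.42.0, library set as a covariate, summed matched libraries, limma 3.58.1 voom with set as a covariate and a correlation of 0.857 between matched libraries, each set alone, and the omission of 5 libraries with Col1a1 under 13 log2 CPM. The omission of libraries 494 and 1831, a covariate for the TEC share (counts at unverified and sense intronic transcripts), the Adgre1 anchor and the comparison of Cd68 with Spi1 were added after the data were seen.

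Libraries were matched by Spearman correlation over 14480 autosomal genes (log2(CPM + 1), mean CPM of at least 1) after set and genotype means were removed. Correlations used log2 CPM (prior count 2) averaged within units, with 100000 permutations (Python 3.11.15, scipy 1.17.1; smallest p 1e-05). The fit was tested on simulated data for p53R172H/fl over p53fl/fl with 18882 genes. There 45% of 100 genes changed 2-fold and 79.4% of 100 genes changed 4-fold were called, with 3 false calls. The simulated libraries were independent, while matched libraries had a correlation of 0.857, so these figures do not cover that dependence.

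All listed genes are named; from each other list, up to 4 called genes by adjusted p, or 2 by level where none was called, and the 10 genes of highest rho with Spi1. The members and lists were chosen with earlier results of these data known. A result among the B cell markers is not reported here.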

Additional observations from a re-analysis of the deposited data

How the results depend on the processing

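Of 1486 values under other settings, 69 lost and 8 gained the threshold in the same direction, 21 counts or medians moved beyond their limit and 4 genes past the threshold changed sign. Counting genes on either side of the threshold, 223 of 1403 member values changed sign. With the TEC share as a covariate 20 of 38 did so in p53R245W/fl over p53R172H/fl and 25 in p53R245W/fl over p53fl/fl; without libraries 494 and 1831 it was 15 and 22, without the libraries of low Col1a1 12 and 23, and in the paired limma fit 11 and 12. The median of the members became negative in all 4 of these settings in both comparisons: -0.36, -0.17, -0.07 and -0.01 over p53R172H/fl, and -0.42, -0.34, -0.18 and -0.04 over p53fl/fl. In p53R172H/fl over p53fl/fl the count of genes past the threshold was 0 in every setting run. In p53R245W/fl over p53fl/fl it was 1 and became 0 with library set as a covariate, with the TEC share as a covariate, without libraries 494 and 1831, within set B, within set C, with matched libraries summed and in the paired limma fit. In p53R245W/fl over p53R172H/fl it was 9 and became 0 with the TEC share, within set B, within set C, with matched libraries summed and in the paired fit; it was 4 without the libraries of low Col1a1 and 2 without 494 and 1831. Among genes past the threshold, the TEC share changed the sign for Cd163 over p53fl/fl (-0.043), and for Lyz2 (-0.12), Fcgr3 (-0.34) and Cd14 (-0.19) over p53R172H/fl. The summed, within-set and omission fits use fewer samples; the cause of the other changes was not tested. Clec4n did not pass in DESeq2 (0.77, adjusted p 0.058), which called 8 higher and 2 lower. No paired analysis by replicate number was possible because tumour numbers are unique and the groups share none. Depth limits Clec9a, Flt3, Xcr1 and Marco.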

Other observations

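The genes of highest rho with Adgre1 outside the list, named after Adgre1 was chosen as an anchor, were Pld4, Cd300c2, Clec4a1, Cxcl16, Tnfaip8l2, Ms4a6b, Tlr8, Ly86, P2ry6 and Cd48, with rho between 0.905 and 0.885 over 34 units. Several encode myeloid surface receptors, and Tlr8 encodes an endosomal receptor of RNA.

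Markers of other cells were tested in the same fits. Of all genes, 1.46% rose and 2.29% fell in p53R172H/fl over p53fl/fl. In p53R245W/fl tumours, 10% rose and 7.82% fell over p53fl/fl, and 18.2% rose and 12.7% fell over p53R172H/fl. Among the B and plasma cell markers, Pax5, a B cell transcription factor, fell in p53R245W/fl over p53R172H/fl tumours (-1.67, adjusted p 0.048), and no marker passed in the other comparisons. None of 9 neutrophil, 5 mast cell or 6 erythroid markers tested passed in any comparison; S100a9, a neutrophil calcium-binding protein, had 0.76 (adjusted p 0.48) and Kit, the mast cell growth factor receptor, had 0.00 (adjusted p 0.99) in p53R245W/fl over p53R172H/fl. Of 11 osteoblast and bone matrix markers, Dmp1, a matrix protein of osteocytes, fell in p53R245W/fl over p53fl/fl (-2.05, adjusted p 0.028) and over p53R172H/fl (-1.77, adjusted p 0.033). Of 6 skeletal muscle markers, Atp2a1 (2.54), Mylpf (1.94), Acta1 (2.09) and Myh4 (2.50) rose in p53R172H/fl over p53fl/fl, and Atp2a1 (-1.82) and Myh4 (-1.94) fell in p53R245W/fl over p53R172H/fl. Of 6 epithelial markers tested, Krt17 fell in p53R172H/fl over p53fl/fl (-4.02), and Cldn1 (7.78) and Perp (4.93) rose in p53R245W/fl over p53fl/fl. Cldn1 (7.45), Perp (5.04), Cdh1 (2.27) and Krt17 (3.70) rose in p53R245W/fl over p53R172H/fl. The highest values outside libraries 494 and 1831 were 2250 CPM for Cldn1 and 243 CPM for Perp, against medians of 0.608 and 0.532 CPM. For Cdh1 and Krt17 they were 31.7 and 65.3 CPM, against medians of 0.904 and 0.206 CPM. In the paired limma fit, Dmp1 in p53R245W/fl over p53R172H/fl was the one gene of these lists past the threshold (-3.16, adjusted p 0.032).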
